A study of Canis lupus familiaris with 12 samples.

Results

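A set of 9 genes grouped as polycystic kidney disease genes was followed here: PKD1, PKD2, PKHD1, GANAB, PRKCSH, SEC63, DNAJB11, DZIP1L and BICC1. Their mutation or loss is linked to fluid-filled cysts, not for every one of them mainly of the kidney. Every probe set of the array whose annotation names exactly 1 of these genes was taken, which gave 16 probe sets for 9 genes, of 42924 probe sets and 15115 genes in all. The rule uses the annotation alone and no measured value, but the 9 genes were chosen with earlier results of these data known. The cells came from MDCK II tet-off, the Madin-Darby line of dog kidney tubule epithelium in a version that carries a tetracycline-regulated transactivator and was kept under G418. They were grown in type I collagen for 8 days, either inside the gel, where they form hollow multicellular cysts (3D, 6 arrays), or as a flat sheet (2D, the control, 6 arrays). Both groups had the same medium, medium changes and collagenase release. Each array carried RNA of 4 pooled samples, and how the pools were drawn is not given in the labels, so the spread and the p-values below concern pools and leave out the variation of single cultures. As these are bulk RNA, fewer cells with a transcript and less of it per cell cannot be told apart.

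Polycystin-1, the product of PKD1, is a large membrane receptor that assembles with the cation channel polycystin-2, the product of PKD2, and the complex acts in the primary cilium of tubule cells. Fibrocystin, encoded by PKHD1, is a membrane protein of the same organelle. The genes GANAB, PRKCSH, SEC63 and DNAJB11 act in the endoplasmic reticulum, where new membrane proteins such as polycystin-1 are imported, glycosylated and folded. GANAB and PRKCSH encode the catalytic and regulatory subunits of glucosidase II, SEC63 a J-domain protein of the import channel, and DNAJB11 a J-domain cofactor of the chaperone HSPA5 (BiP). DZIP1L is a protein of the ciliary base, and BICC1 is an RNA-binding protein whose loss gives cystic kidneys in mice. MDCK cysts are widely used to study how tubule cells build a lumen, and the question here was how these genes differ between cells in cysts and cells in a sheet.

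The median intensity of the 12 arrays was 89.9 to 93.7, and the arrays of a group correlated at 0.993 or more across probe sets. Of 11 measured kidney epithelial markers, 11 lay above the control background on every array, with summed intensities of 36056 to 38883 in 3D and 31022 to 34491 in 2D. That background was the 95th percentile of 59 control sequences matching no dog gene, 5.71 on the log2 scale averaged over arrays. Summed fibroblast markers reached 485.1 to 540.9 in 3D and 514.8 to 600.5 in 2D over 9 genes. Of these COL1A2 and POSTN were at background throughout, and 3 lay above it on every array. Endothelial markers summed to 440.2 to 503.2 in 3D and 498.7 to 539.7 in 2D over 6 genes. PECAM1 was at background on every array, and 4 of the 6 lay above it on every array. Leukocyte markers summed to 671.4 to 781.5 in 3D and 703.3 to 787.0 in 2D over 9 genes. CD163 was at background on every array, and 6 of the 9 lay above it on every array. A pair of arrays stood apart on the second principal component, 3D replicate 2 and 2D replicate 6, and results that change without them are given both ways. The log2 ratio of 5-prime to 3-prime signal over 4 actin and GAPDH control pairs, a sign of RNA integrity, averaged -0.54 (SD 0.17) over the 6 cyst arrays and -0.91 (SD 0.14) over the 6 sheet arrays, with an exact two-sided permutation p of 0.00866. This ratio differed between the groups of every comparison below. Of the markers 5 epithelial, 0 fibroblast, 0 endothelial and 1 leukocyte gene were called higher in cysts, and 2, 2, 2 and 3 in the same order were called lower. A fit with the ratio as a covariate called 3, 0, 0 and 1 higher and 3, 0, 0 and 0 lower, so the 7 lowered calls outside the epithelial list ended there. Over all genes 19.8% were higher and 22.9% lower without the covariate, and 12.6% higher and 8.33% lower with it. The part of the ratio and of the marker lists in the results was not tested.

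Of the 9 genes 3 were lower in cysts, 0 were higher and 6 did not pass the test (moderated test of limma, Benjamini-Hochberg adjusted p under 0.05 over all probe sets, as for every adjusted p below). BICC1 fell by 1.05 on the log2 scale, PKHD1 fell by 0.49 and DZIP1L fell by 0.18. Over all 15115 genes 22.9% were lowered and 19.8% raised, so a count of 3 of 9 is near what the whole array showed. Of the 16 probe sets 5 were lowered and 0 raised, against 22.0% lowered and 16.7% raised over all probe sets. At an unadjusted p under 0.05 there were 4 member genes, the 3 that passed and DNAJB11. When the RNA control ratio was a covariate, the 3 lowered genes were BICC1, PKHD1 and PKD2, and DZIP1L no longer passed, against 8.33% of all genes lowered and 12.6% raised in that fit. The median log2 fold change of the 9 genes was -0.08, and that of all genes was -0.05. Values are log2(intensity + 1) and fold changes are 3D over 2D on that scale, with the standard error (SE) and a 95% interval of the limma fit.

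**Figure D1:**
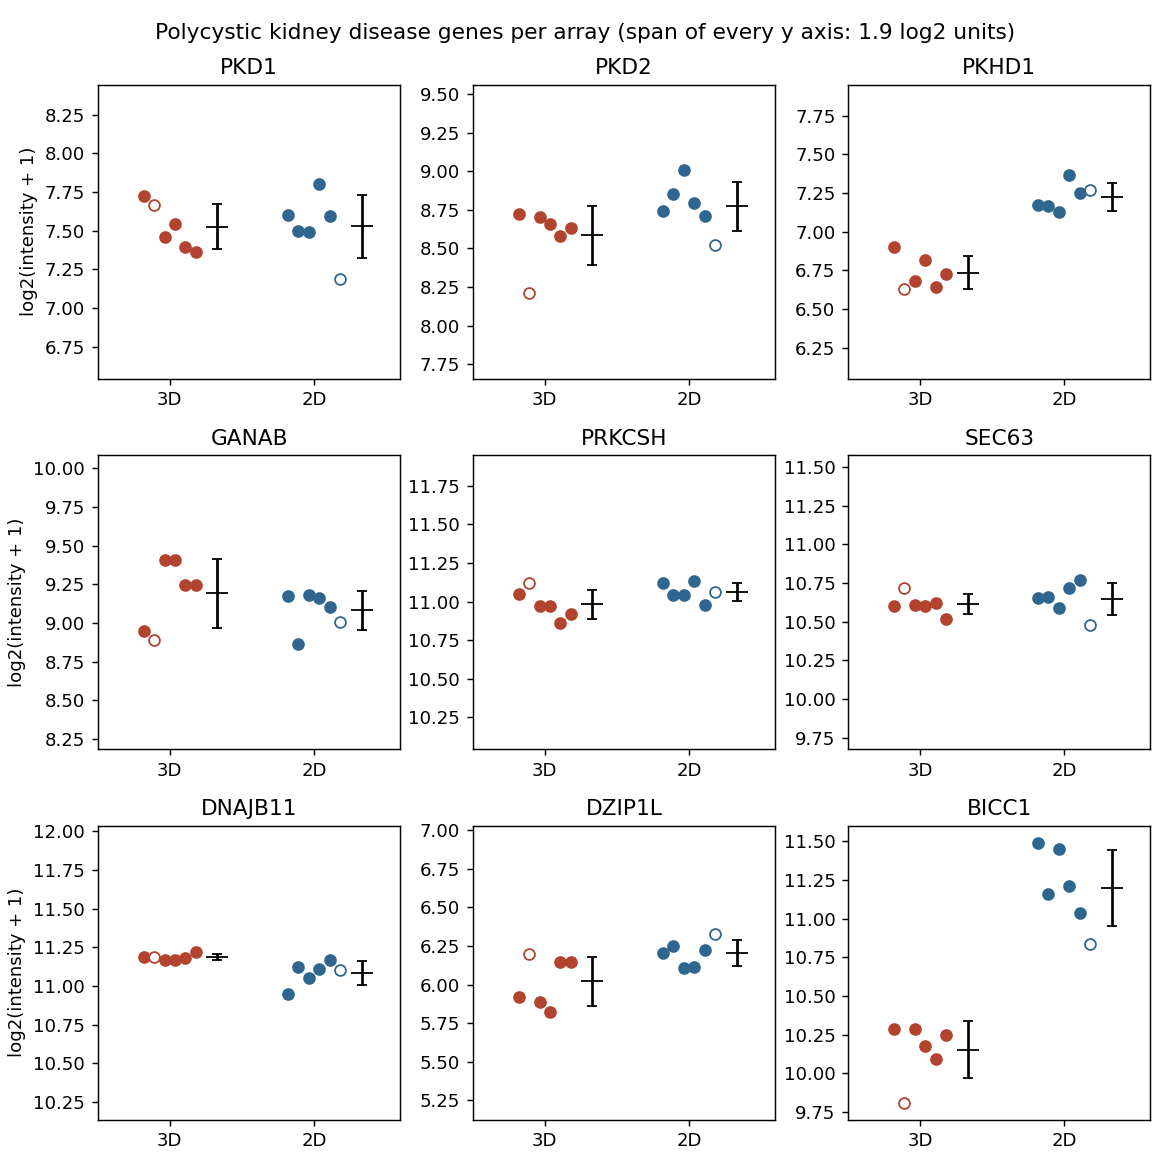
Level of each member gene on the 12 arrays, as log2(intensity + 1) of its main probe set, with 3D at the left and 2D at the right of each panel; bars give mean and SD (n = 6), and open circles are 3D replicate 2 and 2D replicate 6. Levels may be compared within a panel only. BICC1 and PKHD1 are separated without overlap, and the other 7 genes overlap.

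BICC1 had the largest change of the 9 genes. It was measured by 2 probe sets, and the brighter (CfaAffx.19164.1.S1_s_at) read 9.81 at the lowest, 10.22 at the median and 10.29 at the highest in 3D, against 10.84, 11.18 and 11.49 in 2D. Every cyst array lay below every sheet array, a separation that 9.49% of all genes showed in this direction. BICC1 fell with a log2 fold change of -1.05 (SE 0.11, 95% interval -1.27 to -0.82, adjusted p = 1.18e-06), a level in cysts 0.48 times that in sheets. The second probe set (CfaAffx.19159.1.S1_at) gave 9.86, 10.07 and 10.24 in 3D and 10.59, 11.08 and 11.39 in 2D, with a log2 fold change of -1.02 (SE 0.11, adjusted p = 1.60e-06). The 2 probe sets thus gave nearly the same size of change. Only 32 of the 15115 genes had a lower log2 fold change than BICC1, and 0.271% of genes were lowered at least 2-fold with an adjusted p under 0.05. In both probe sets 3D replicate 2 was the lowest cyst array and 2D replicate 6 the lowest sheet array. Without these 2 arrays the log2 fold change was -1.05 (adjusted p = 1.14e-07). With the RNA control ratio as a covariate it was -1.45 (SE 0.12, adjusted p = 5.19e-07).

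PKHD1, a gene of the recessive disease, was the other member whose groups did not overlap. Its brighter probe set (Cfa.13542.1.A1_at) read 6.63, 6.70 and 6.90 at the lowest, median and highest in 3D and 7.13, 7.21 and 7.37 in 2D. The log2 fold change was -0.49 (SE 0.06, 95% interval -0.62 to -0.37, adjusted p = 5.79e-06), or 0.71 times the sheet level. The second probe set (CfaAffx.4150.1.S1_s_at) read 6.23, 6.33 and 6.37 in 3D and 6.61, 6.73 and 6.86 in 2D, and fell by 0.42 (SE 0.05, adjusted p = 9.58e-06). All 12 values of either probe set were above the control background, which averaged 5.71 over arrays. Changes near background can be compressed on this scale, and whether that of PKHD1 was compressed was not tested. PKHD1 had 254 genes with a lower log2 fold change, 1.68% of all genes. With the RNA control ratio as a covariate the main probe set gave -0.47 (SE 0.10, adjusted p = 0.00231).

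The polycystin genes did not pass. PKD1, which carries most of the dominant disease, read 7.36, 7.50 and 7.72 in 3D and 7.19, 7.55 and 7.80 in 2D on its main probe set (CfaAffx.24.1.S1_at). The cyst values lay wholly inside the sheet range. Its log2 fold change of -0.002 had a 95% interval of -0.19 to 0.19 (adjusted p = 0.986). A second probe set (CfaAffx.29696.1.S1_s_at) was above the control background on 4 of 6 arrays in 3D and 4 of 6 in 2D and gave -0.03 (SE 0.08, adjusted p = 0.770).

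PKD2, the channel partner, was measured by 1 probe set (CfaAffx.15084.1.S1_s_at). It read 8.21, 8.64 and 8.72 at the lowest, median and highest in 3D and 8.52, 8.77 and 9.01 in 2D. The groups overlapped, and 3D replicate 2 alone lay below all sheet arrays. The log2 fold change was -0.19 (SE 0.09, 95% interval -0.38 to 0.002, adjusted p = 0.106). PKD2 passed when the RNA control ratio was a covariate (-0.53, adjusted p = 0.000982) and after quantile normalization (-0.29, adjusted p = 0.00729). Leaving out 2D replicate 6 gave -0.24 (adjusted p = 0.0424), and leaving out both arrays that stood apart gave -0.16 (adjusted p = 0.0384). Leaving out only 3D replicate 2 gave -0.11 (adjusted p = 0.203). That array also had the lowest RNA control ratio among the cyst arrays (-0.88, the others -0.55 to -0.40). A covariate fit without it was not run.

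**Figure D2:**
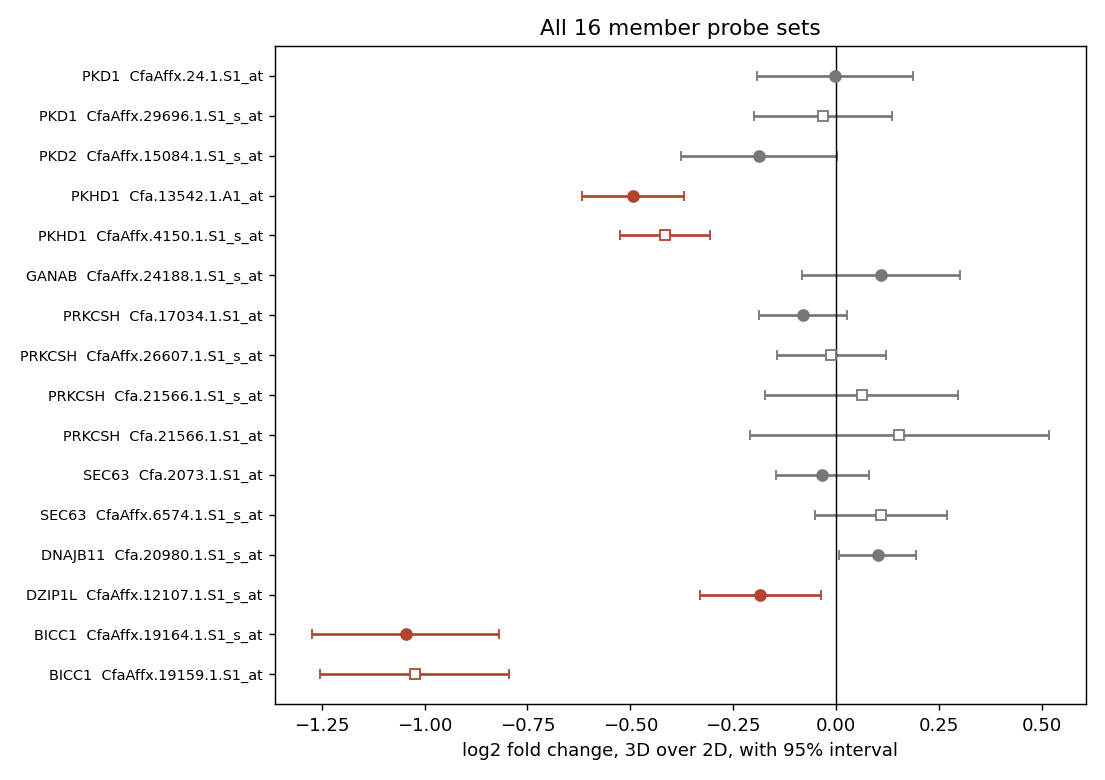
Log2 fold change of the 16 member probe sets, 3D over 2D, with 95% intervals (n = 6 arrays each); filled circles are the main probe set of a gene, open squares its other probe sets, and red marks an adjusted p under 0.05. The pairs of BICC1 and PKHD1 lie near each other, while those of PRKCSH and SEC63 lie on both sides of 0.

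The 4 genes of the endoplasmic reticulum did not pass. GANAB, the catalytic subunit of glucosidase II, read 8.89, 9.25 and 9.41 in 3D and 8.86, 9.13 and 9.18 in 2D (CfaAffx.24188.1.S1_s_at). Cyst replicates 1 and 2 lay among the sheet values and the other 4 cyst arrays lay above all of them. The log2 fold change was 0.11 (SE 0.09, 95% interval -0.08 to 0.30, adjusted p = 0.350).

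PRKCSH, the regulatory subunit, which holds the catalytic subunit in the compartment, had 4 probe sets. The brightest (Cfa.17034.1.S1_at) read 10.86, 10.97 and 11.12 in 3D and 10.98, 11.05 and 11.13 in 2D, with a log2 fold change of -0.08 (SE 0.05, 95% interval -0.19 to 0.03, adjusted p = 0.223). The other 3 gave -0.01 (CfaAffx.26607.1.S1_s_at), 0.06 (Cfa.21566.1.S1_s_at) and 0.15 (Cfa.21566.1.S1_at), none of them passing (adjusted p = 0.491 to 0.897). The last had the widest spread of all 16, with an SD of 0.40 in 3D and 0.32 in 2D. With the RNA control ratio as a covariate the last 2 turned to -0.40 and -0.60 (adjusted p = 0.0109 and 0.00679), while the brightest stayed unpassed, so the probe sets of PRKCSH disagree under that fit.

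SEC63, the import-channel protein, read 10.52, 10.61 and 10.72 in 3D and 10.48, 10.65 and 10.77 in 2D on its brighter probe set (Cfa.2073.1.S1_at). Its log2 fold change was -0.03 (SE 0.05, 95% interval -0.15 to 0.08, adjusted p = 0.642). The other probe set (CfaAffx.6574.1.S1_s_at) gave 0.11 (SE 0.08, adjusted p = 0.261). Leaving out 2D replicate 6 gave 0.17 (adjusted p = 0.0440), and leaving out both arrays that stood apart gave 0.19 (adjusted p = 0.0296).

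DNAJB11, the HSPA5 cofactor, had the tightest values of the 9 genes in cysts. It read 11.17, 11.18 and 11.22 at the lowest, median and highest in 3D and 10.95, 11.11 and 11.17 in 2D (Cfa.20980.1.S1_s_at). The groups met at their edges. The log2 fold change was 0.10 (SE 0.04, 95% interval 0.007 to 0.20), which did not pass after adjustment (adjusted p = 0.0804). It passed with the trend and robust prior (adjusted p = 0.0388), with averaged probe sets and adjustment over genes (adjusted p = 0.0451) and with median centring (0.13, adjusted p = 0.0453). Leaving out 2D replicate 5 gave 0.12 (adjusted p = 0.0499).

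DZIP1L, which acts at the ciliary base in the transition zone that controls entry of polycystins, lay close to the control background, above it on all 12 arrays. It read 5.82, 6.03 and 6.20 in 3D and 6.10, 6.21 and 6.33 in 2D (CfaAffx.12107.1.S1_s_at). The groups overlapped, with 3 cyst arrays below all sheet arrays. DZIP1L fell by 0.18 on the log2 scale (SE 0.07, 95% interval -0.33 to -0.04, adjusted p = 0.0472). The call ended under 11 of 22 alternatives. Among them were quantile normalization (-0.13, adjusted p = 0.125), median centring (-0.16, adjusted p = 0.0782), a pseudocount of 16 (-0.15, adjusted p = 0.0505) and the RNA control ratio as a covariate (-0.05, adjusted p = 0.811). It also ended without any 1 of 7 arrays, 2D replicates 1, 2, 5 and 6 and 3D replicates 1, 3 and 4 (-0.18 to -0.14, adjusted p = 0.0700 to 0.116).

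**Figure D3:**
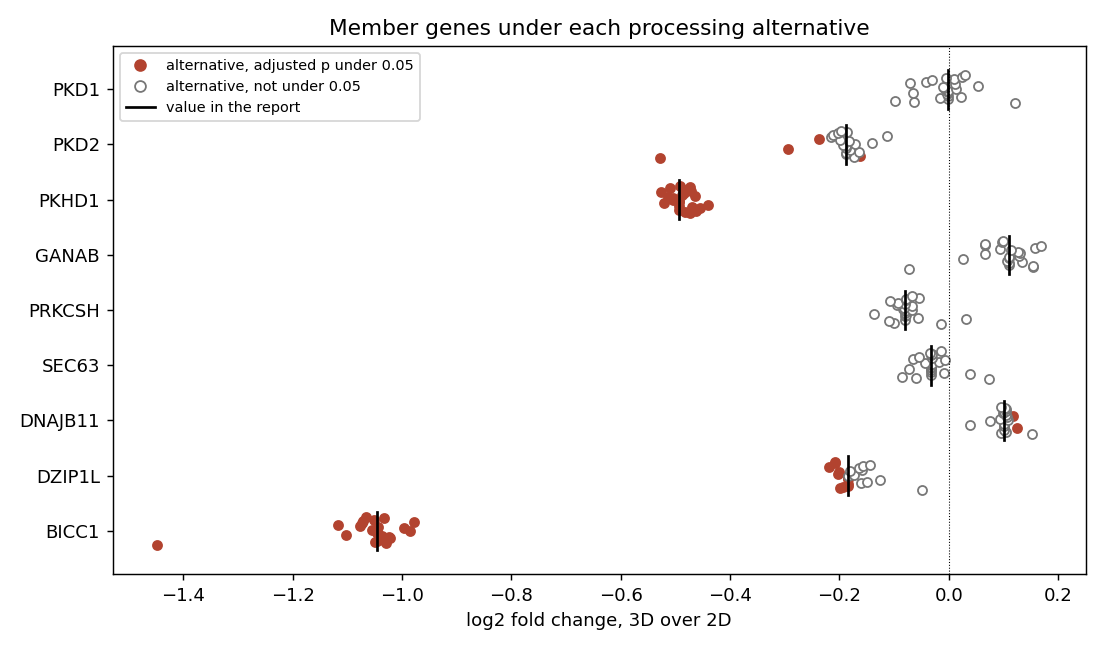
Log2 fold change of each member gene, 3D over 2D, under each processing alternative (points) and as reported (black line); red points have an adjusted p under 0.05. BICC1 ranges from -1.45 to -0.98 and PKHD1 from -0.53 to -0.44 with all points red, DZIP1L, PKD2 and DNAJB11 hold points of both kinds, and PKD1 spreads on both sides of 0.

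BICC1 and PKHD1 passed under all 23 alternatives that gave them a value. Across these BICC1 ranged from -1.45 to -0.98 and PKHD1 from -0.53 to -0.44. PKD1 ranged from -0.10 to 0.12 and passed under 0 of 23. GANAB ranged from -0.07 to 0.17, PRKCSH from -0.14 to 0.03 and SEC63 from -0.09 to 0.07, each passing under 0 alternatives. Over the 16 probe sets 3D replicate 2 held the lowest cyst value in 8 and the highest in 3, and 2D replicate 6 held the lowest sheet value in 6 and the highest in 2.

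Partner genes were set against each other within each array, which removes a factor that shifts both probe sets equally. A factor that shifts them unequally stays in the difference. With the RNA control ratio as a covariate, PKD2 had a log2 fold change of -0.53 and PKD1 of 0.12. The part of that ratio in the differences was not tested. The difference of PKD2 minus PKD1 was 1.06 ± 0.27 in 3D and 1.24 ± 0.19 in 2D (SD, n = 6), with overlapping values. GANAB minus PRKCSH was -1.79 ± 0.29 in 3D and -1.98 ± 0.12 in 2D, also overlapping. DNAJB11 minus HSPA5, the cofactor against its chaperone, was -1.97 ± 0.05 in 3D and -1.93 ± 0.09 in 2D. SEC63 minus HSPA5 was -2.54 ± 0.07 in 3D and -2.37 ± 0.04 in 2D, and here the 6 cyst values, -2.59 to -2.42, all lay below the 6 sheet values, -2.41 to -2.32. HSPA5 itself, on 1 of its 2 probe sets, rose by 0.14 (SE 0.04, adjusted p = 0.0194), a call that ended with quantile normalization (0.08, adjusted p = 0.127) and with the RNA control ratio as a covariate (adjusted p = 0.222). Each difference used the main probe set of a gene. SEC63 had a log2 fold change of -0.03 on that probe set and 0.11 on its other one. Whether the separation holds with the other probe set was not examined. These differences are a description without a test, and how many other gene pairs separate was not counted. Their absolute size also holds the unequal response of different probe sets, so only the shift between cultures can be read.

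**Figure D4:**
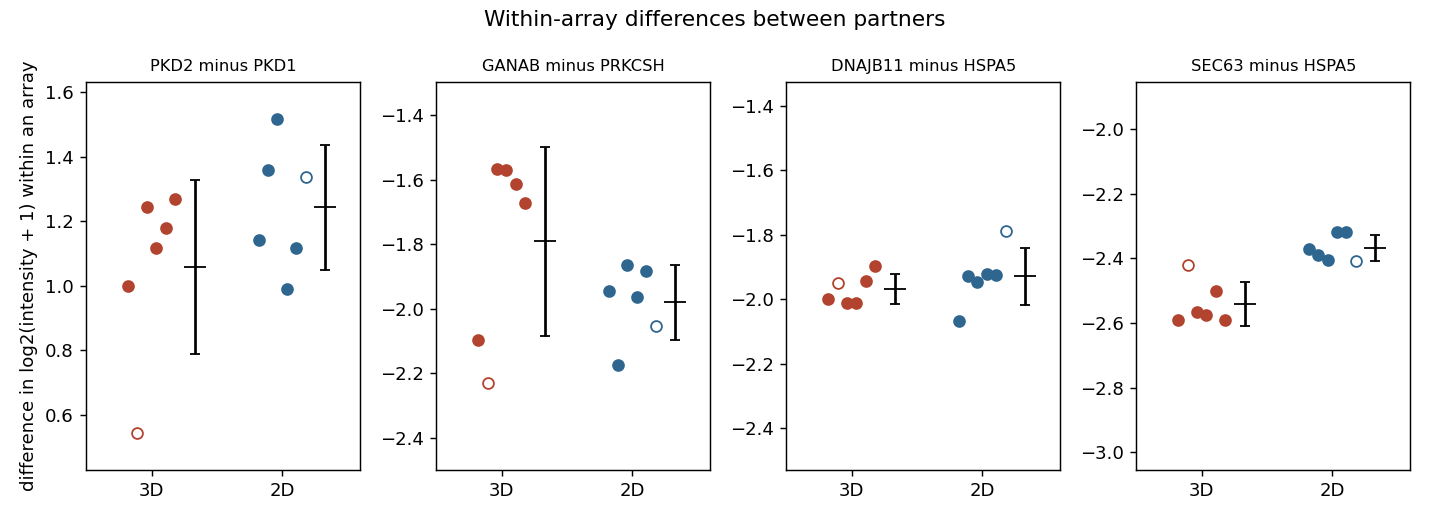
Difference in log2(intensity + 1) between partner genes on each array, 3D at the left and 2D at the right of each panel; bars give mean and SD (n = 6), and open circles are 3D replicate 2 and 2D replicate 6. On the main probe sets, the values of SEC63 minus HSPA5 do not overlap between cultures, and those of the other 3 pairs do.

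Genes around the 9 were then counted in lists drawn up from general knowledge, with earlier results of these data known. Over all genes 19.8% were raised and 22.9% lowered. Among 24 measured genes of glycoprotein folding in the endoplasmic reticulum, 11 rose, 3 fell and 10 did not pass, with a median of 0.14. UGGT2, a relative of the folding sensor that returns glycoproteins to the calnexin cycle, rose by 0.64 (SE 0.06), PDIA4, a disulfide isomerase, by 0.44, and the cargo lectins LMAN2 and LMAN1 by 0.41 each. All 24 lay above the control background on every array. GANAB and PRKCSH, which work in the same cycle, had log2 fold changes of 0.11 and -0.08 and did not pass. A fit with the RNA control ratio as a covariate raised 8 of the 24 and lowered 1, against 12.6% of all genes raised and 8.33% lowered in that fit.

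Of 22 genes of the import channel and related J proteins, 7 were called higher, 3 fell and 12 did not pass, with a median of 0.03. That is 31.8% higher and 13.6% lower, against 19.8% and 22.9% of all genes. SPCS3, a signal peptidase subunit, rose by 0.62 (SE 0.06) and SIL1, a nucleotide exchange factor of HSPA5, by 0.46. The J protein DNAJC3, counted as higher, had a log2 fold change of 0.80 on its main probe set, but 1 of its 4 probe sets fell, so its direction is uncertain. DNAJC1, another J protein of the compartment, rose by 0.33. The covariate fit called 5 of the 22 higher and 2 lower, against 12.6% and 8.33% of all genes. Among 22 genes of N-glycan assembly 3 rose and 6 fell (median -0.03). These are 13.6% and 27.3%, against 19.8% and 22.9% of all genes. OSTC, an oligosaccharyltransferase subunit, rose by 0.33, and ALG13 fell by 0.53. Its partner ALG14, which with it adds the second sugar of the glycan precursor, fell by 0.34. The call of ALG14 ended with the RNA control ratio as a covariate (-0.26, adjusted p = 0.0639), and that fit lowered 2 genes of the list and raised 2.

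Genes of nephronophthisis and of the ciliary transition zone, whose loss also gives cystic kidneys, had 25 measured members. Of these 12 fell, 2 rose and 11 did not pass, against 22.9% lowered and 19.8% raised over all genes, with a median of -0.16 against -0.05 over all genes. TCTN2 fell by 0.62 (SE 0.06), B9D1 by 0.56 and TMEM67 by 0.50, all of them parts of the transition zone complex. DCDC2, a doublecortin-domain protein of the cilium, fell by 0.50 (SE 0.10). Of the 2 probe sets of TCTN2, 1 was lowered and 0 raised. DZIP1L, at -0.18, was near the list's median. With the RNA control ratio as a covariate 6 of the 25 fell and 1 rose, against 8.33% of all genes lowered and 12.6% raised in that fit.

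BICC1 forms a complex with ANKS3 and ANKS6, and ANKS6 links it to the kinase NEK8 and to inversin, INVS, at the base of the cilium. Of 7 measured genes of this group 1 passed, a lowered gene, against 22.9% lowered and 19.8% raised over all genes. NEK8, itself a cystic kidney gene, fell by 0.43 (SE 0.07, adjusted p = 7.38e-05). INVS, ANKS6, ANKS3, ANKS1A, CNOT3 and ADCY6 had log2 fold changes between -0.11 and 0.11 and did not pass. The only gene of the group at an unadjusted p under 0.05 was also NEK8.

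A list named for polycystin traffic to the cilium had 19 measured genes, not all of which have that role. Of these 5 were called lower and 2 higher (median -0.07). That is 26.3% lower and 10.5% higher, against 22.9% and 19.8% of all genes. The 2 called higher were RAB11A and, without a settled direction, RAB8A. The carriers of intraflagellar transport IFT88 and IFT140 fell by 0.51 and 0.45, and IFT140 is itself mutated in a mild dominant cystic disease. The vesicle GTPase RAB11A rose by 0.31. RAB8A had a log2 fold change of 0.47 on its main probe set (adjusted p = 0.00542), but -0.18 on the probe set without the suffix _s_at (adjusted p = 0.372), so no direction is given for it. Its call also ended with averaged probe sets (0.14, adjusted p = 0.224) and with the RNA control ratio as a covariate (-0.03, adjusted p = 0.877). That covariate fit called 1 gene of the list higher and 4 lower, against 12.6% and 8.33% of all genes.

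A list of relatives of the polycystins and fibrocystin, by name or domain, had 8 measured genes, of which 3 fell and 1 rose. Over all genes 22.9% fell and 19.8% rose. The gene that rose, PKDCC, by 0.63 (SE 0.06), shares only part of its symbol with them, as it encodes a secreted tyrosine kinase. PKD1L3 fell by 0.28 (SE 0.06), LOXHD1, which has domains of a kind also found in polycystin-1, by 0.21 and PKD1L2 by 0.25. PKD1L3 averaged 5.87 in 3D and 6.15 in 2D, and PKD1L2 6.04 and 6.29, close to the control background of 5.71. Of the 4 probe sets of LOXHD1, 2 were lowered and 0 raised. With the RNA control ratio as a covariate PKD1L3 had -0.31 (adjusted p = 0.0494). The calls of LOXHD1 and PKD1L2 ended with the RNA control ratio as a covariate (-0.03 and -0.12; adjusted p = 0.875 and 0.603), and that of PKD1L2 also with quantile normalization (-0.20, adjusted p = 0.0723) and without any 1 of 2D replicate 2 and 3D replicates 1 and 3 (-0.23 to -0.20, adjusted p = 0.0538 to 0.0579). The covariate fit called 1 of the 8 higher and 1 lower, against 12.6% and 8.33% of all genes. PKD2L1, PKD2L2 and PKHD1L1 were at background on all 12 arrays.

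Of 18 genes of other inherited cystic kidney conditions, 6 fell and 2 rose (median -0.11). That is 33.3% lowered and 11.1% raised, against 22.9% and 19.8% of all genes. TSC2, the tuberous sclerosis gene that adjoins PKD1 in mammalian genomes, fell by 0.89 (SE 0.06, adjusted p = 1.09e-08), while PKD1 did not pass. FLCN, the folliculin gene, fell by 0.41, with 2 of its 4 probe sets lowered and 0 raised. EYA1 and LRP2, counted among the 6 that fell, were above the control background on 1 and 3 of 12 arrays. PMM2, a mannose enzyme linked to a recessive cystic phenotype, rose by 0.37, and its call ended with the RNA control ratio as a covariate (0.11, adjusted p = 0.624). That fit lowered 2 genes and raised 1 of the list, against 8.33% and 12.6% of all genes.

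The list of cyst growth signalling had 6 raised and 4 lowered of 25 (median 0.01). That is 24% raised and 16% lowered, against 19.8% and 22.9% of all genes. The chemokine CCL2 rose by 6.49, MYC by 0.68 and the receptor EGFR by 0.59. PDE1A, a phosphodiesterase that breaks down cyclic AMP, fell by 0.59 (SE 0.10, adjusted p = 0.000149). Its call ended with the RNA control ratio as a covariate (-0.31, adjusted p = 0.117). That covariate fit raised 5 genes of the list and lowered 3, against 12.6% and 8.33% of all genes. CFTR, the chloride channel of cyst fluid secretion, was at background on all 12 arrays. HGF, counted among the 4 lowered, was above the control background on 1 of 12.

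**Figure D5:**
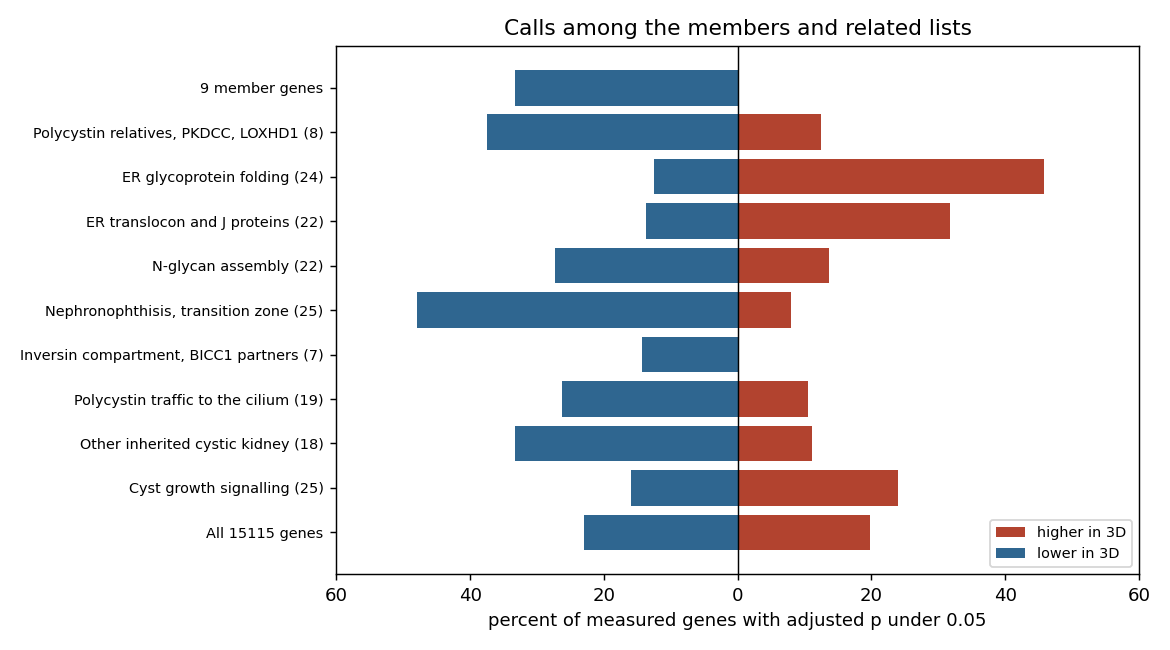
Percent of the measured genes of each list, with the number measured in brackets, whose adjusted p was under 0.05, higher in 3D to the right and lower in 3D to the left. The 9 member genes have 3 lowered and 0 raised, glycoprotein folding has 11 of 24 raised, and the nephronophthisis and transition zone list has 12 of 25 lowered, beside 19.8% raised and 22.9% lowered over all genes.

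For the 2 members with the largest change, the genes most like them from array to array were sought, as Pearson's r of the deviations from the group means over the 12 arrays. Nearest to BICC1 were MORN4 (r = 0.97), EPS8 (r = 0.97) and DZIP3 (r = 0.96). Of these EPS8, an actin-capping protein, fell between cultures by 0.46 (SE 0.08, adjusted p = 0.000303), and MORN4 and DZIP3 had log2 fold changes of 0.10 and -0.20 and did not pass. Nearest to PKHD1 were TNFAIP8 (r = 0.91), DCAF6 (r = 0.87) and ASH1L (r = 0.85). DCAF6 rose by 0.29 (SE 0.05, adjusted p = 0.000485), and TNFAIP8 and ASH1L had log2 fold changes of 0.01 and -0.17 and did not pass. These are the highest values among all genes, and the points share the arrays and their RNA quality, 3D replicate 2 and 2D replicate 6 included. Among pairs of members the highest such r was that of PKD2 and BICC1 (r = 0.82), both lowest on 3D replicate 2 among cysts and on 2D replicate 6 among sheets.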

How the data were processed

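RNA of 6 cyst (3D) and 6 sheet (2D) samples, grouped by their titles, was hybridised to 12 Affymetrix dog arrays of 1 colour. The authors deposited a linear intensity for each probe set on each array, made with GCRMA per the submitters' processing notes. Neither its version nor any scaling after it is given in the sources used here. GCRMA pulls dim probe sets together, so small changes near background may be compressed.

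The intensities were turned into log2(intensity + 1) and not normalized further. Apart from 111 control probe sets, all 42924 were fitted with limma 3.58.1 in R 4.3.3 (lmFit, eBayes, group as the only term, two-sided, Benjamini-Hochberg over all probe sets, threshold 0.05). No filter was applied. For a gene with several probe sets the one with the highest mean stood for it. Probe sets ending in _s_at can hybridise with related transcripts. Names came from the platform annotation, and no genome coordinates or sequences were used here, so the planned motif search in promoters was not run. The control ratio was compared over all 924 assignments of arrays. Members and lists were chosen with earlier results of these data known. All 9 members are named; from each list up to 4 of the most changed genes that passed were eligible, and where none passed up to 2 of the brightest, and TNFAIP8, DCAF6, ASH1L, MORN4, EPS8 and DZIP3 were named as the 3 genes with the highest r to PKHD1 or BICC1. Genes at background on all or most arrays, and the members of the BICC1 partner list that did not pass, were named after their values were seen. Precision is set by the 6 arrays of a group.

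The scripts were tested on simulated data with known changes, 50 probe sets for each size. The test recovered 32% of planted log2 changes of 0.25 and 92% of those of 0.5, with 11 false among 173 calls. Small changes can thus be missed. Far fewer probe sets were changed there than were called in the data, so the recovered share may differ. The replicate numbers were checked for pairing: the deviations of same-numbered arrays correlated at 0.0008 to 0.36, over 0.1 in 3 of 6 pairs. These values do not settle whether the numbers mark pairs. The main fit did not treat the arrays as pairs, and a fit with the replicate number as a block is among the alternatives. Alternatives were a filter on dim probe sets, quantile normalization, median centring, a trend and robust prior, array weights, the replicate block, leaving out each array or both that stood apart, a pseudocount of 16, the RNA control ratio as a covariate, averaged probe sets, probe sets without the suffix _s_at or _x_at, and a 2-fold minimum.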

Additional observations from a re-analysis of the deposited data

Results flagged for a closer look

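In 34 groups of 6 values, the 16 member probe sets and the RNA control ratio in either culture, 2 values stood far from the other 5, and chance gives about 1 in 20 such groups. PKD2 in 3D was 8.21 on replicate 2, while the other 5 cyst arrays lay between 8.58 and 8.72. Leaving out that array gave PKD2 a change of -0.11 on the log2 scale (adjusted p = 0.203). The mean log2 5-prime to 3-prime control ratio in 3D was -0.88 on the same replicate 2, while the other 5 lay between -0.55 and -0.40.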

How the results depend on the processing

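Of 1395 gene and probe set values under alternatives, 1315 kept their direction and their side of the threshold, 42 no longer passed, 10 newly passed and 28 changed sign. The member genes and probe sets called higher numbered 0, and DNAJB11 made it 1 gene and 1 probe set with centring on the median and with the trend and robust prior, and 1 gene with averaged probe sets. Without both arrays that stood apart 1 member probe set rose, that of SEC63, and leaving out single arrays gave 0 to 1 genes and 0 to 1 probe sets, DNAJB11 without 2D replicate 5 and SEC63 without 2D replicate 6. With a 2-fold minimum 1 member gene and 2 member probe sets were lower, all of BICC1. Signs changed for values that had not passed, except RAB8A, ALG1 and DNAJC3, which had. With the RNA control ratio as a covariate the values of opposite sign were PKD1 (0.12), GANAB (-0.072), SEC63 (0.074) and the PRKCSH probe sets CfaAffx.26607.1.S1_s_at (0.11), Cfa.21566.1.S1_s_at (-0.40) and Cfa.21566.1.S1_at (-0.60), and RAB8A (-0.033). With averaged probe sets PRKCSH had 0.031 and SEC63 0.038. With centring PKD1 had 0.022 and CfaAffx.26607.1.S1_s_at 0.012, and with quantile normalization CfaAffx.29696.1.S1_s_at of PKD1 had 0.039 and Cfa.21566.1.S1_s_at -0.025. Leaving out single arrays gave PKD1 -0.071 to 0.053, its second probe set -0.069 to 0.022 and CfaAffx.26607.1.S1_s_at -0.049 to 0.026. Without _s_at and _x_at probe sets ALG1 had 0.024, DNAJC3 -0.18 (adjusted p = 0.0294) and RAB8A -0.18. The cause was not tested.

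With the replicate number as a block (replicate block), 3 member genes and 5 member probe sets were lower and 0 were higher, the same counts as without it. Among all genes the RNA control ratio as a covariate gave 1907 raised and 1259 lowered, against 2988 and 3465, and a 2-fold minimum 280 and 41. Of 598 counts over the lists under alternatives, 60 moved by over 1.5 times. Changes of the dimmest members, DZIP1L and PKHD1, may be compressed, which was not tested.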
